A study of Mus musculus with 6 samples.

Results

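The genes described here are 9 genes of blood vessel cells: the receptors of vascular endothelial growth factor (VEGF) Flt1, Kdr and Flt4, their co-receptor Nrp1, the TIE receptors Tie1 and Tek, and the endothelial genes Pecam1, Cdh5 and Eng. They were matched by symbol among the 17691 genes of both deposited tables, and all 9 were found. The set was put together with the differences between treated and untreated cells already known, Flt1 and Tie1 being singled out for theirs. The values of that comparison are therefore given as a description, and the counts of genes called support nothing. Of the 9 genes, 8 passed the filter on low counts that left 12283 genes for testing, and Tek did not. The filter asked for 0.502 CPM in at least 3 libraries. Tie1 reached that in 2 untreated libraries, and Flt4 and Cdh5 in 1 each, but all 3 genes reached it in every CDs library, so they passed only with the help of their treated libraries.

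VEGF is a secreted signal for the growth of vessels and acts through receptor tyrosine kinases on endothelial cells. Kdr (VEGFR2) is the main signalling receptor. Flt1 (VEGFR1) binds VEGF-A and placental growth factor, has weak kinase activity and, in a soluble splice form, holds the ligand back. Flt4 (VEGFR3) is the receptor of lymphatic vessels for VEGF-C and VEGF-D, and Nrp1 presents VEGF to Kdr. Tek (TIE2) is the receptor of the angiopoietins and Tie1 is its partner receptor. In fetal liver these genes mark sinusoidal endothelium, and several are also expressed in stem cells, megakaryocytes or macrophages.

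RNA was sequenced in 6 libraries of TER119-negative erythroblasts, nucleated red cell precursors, from fetal liver of C57BL/6J mice, with no age in the labels. Untreated (3 libraries) and CDs (3 libraries) cells were both grown for 30 h with erythropoietin, and the CDs cells also received 1 ug/ml of carbon dots, nanometre-sized carbon particles made from the plant Codonopsis pilosula. Levels are CPM, expected counts relative to the library size adjusted by TMM, or, between genes, the deposited FPKM, which is per gene length. Library totals lay between 17695997 and 20066581 expected counts, and the labels do not say whether replicates were separate cultures or litters, so the spread between them may be technical.

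The 6 libraries formed a gradient, with the 2 numbered 3 at one end and CDs 2 next to them. The first principal component of log2 CPM held 91.2% of the variance. Its scores were -76.7, -43.0 and 68.1 in untreated 1 to 3, against -48.0, 11.2 and 88.3 in CDs 1 to 3. Gata1, the erythroid master regulator, measured 249 CPM or more in every library. The 24 macrophage markers listed, with Adgre1, Csf1r and C1qa among them, summed to between 319 and 7078 CPM in untreated libraries. In CDs 1 to 3 they summed to 683, 2578 and 9298 CPM, and the highest sum of each group was in number 3. Of these markers 21 passed the filter, and Timd4, Cd163 and Vsig4 did not. Vsig4 was at 0 in the 3 untreated libraries, and no marker was at 0 throughout. Of 36 endothelial genes listed besides the 9, only 15 passed the filter and 19 stayed under 0.5 CPM in every library. Emcn, Clec14a, Gpihbp1 and Sox18, all typical of endothelium, were at 0 in the 3 untreated libraries, and none of the 36 was at 0 throughout. In such bulk RNA, fewer cells of a type and less RNA per cell cannot be told apart.

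Stretches of the upstream regions of 4 of the genes are shown because Flt1 and Tie1 had one pattern across the libraries and Kdr and Nrp1 another. RefSeq's promoter table matched 7 of the 9 genes by symbol. Each stretch is the 30 bases richest in the letters searched within the 250 bases before the transcript start in that table (GRCm38.p6), leaving out bases that GENCODE M21 places in an exon. They are written 5′ to 3′ on the gene's strand, with GGAA (the core of ETS factor sites, also as TTCC on the other strand) and TGACGTCA in capitals. They lie at chr5:147726063-147726092 (Flt1, minus strand), chr4:118490064-118490093 (Tie1, minus strand), chr5:75978570-75978599 (Kdr, minus strand) and chr8:128358966-128358995 (Nrp1, plus strand). In Flt1, Kdr and Nrp1 this start lies inside the outer bounds of the RefSeq gene given with each gene, so these 3 stretches are upstream of the start used but within the annotated gene.
Flt1: TGACGTCActGGAAggaggtgccggggtag
Tie1: cttctcaataggcGGAAgccactggcTTCC
Kdr: agtgggggagtgggcgtgGGAAaccgGGAA
Nrp1: gcggggagggggcgggaGGAAgggagGGAA
The 250 bases held GGAA on either strand 4 times in Flt1, 7 times in Tie1, 4 times in Kdr and 4 times in Nrp1. These counts include exon bases. In Tie1 only 38 of the 250 bases lie upstream of any exon, against 247 in Kdr and 250 in Flt1 and Nrp1. The count of Tie1 is therefore not comparable with the others. Of 32817 windows of that length in the table, 93.4% hold GGAA at least once. TGACGTCA, the palindromic CRE sequence, was searched after it had been seen in the Flt1 window, where it stands once. It is in none of the other 3, and 1.55% of all windows hold it. These matches describe letters only.

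Flt1 was by far the most abundant of the 9 genes and was higher in every CDs library than in any untreated one, whereas Kdr, Flt4, Nrp1, Pecam1, Cdh5 and Eng were highest in the libraries numbered 3 of both groups. Tie1 and Tek, at far lower levels, also had no overlap, in Tek only after scaling for library size. In each of the 3 same-numbered pairs all 9 genes had the larger value with CDs. Among all genes tested, 30.3% were higher with CDs in all 3 pairs, 2.39% had the 3 CDs libraries above the 3 untreated ones, and 2.34% had them below, which none of the 9 did. The genes were chosen on this contrast, so nothing is read from these counts.

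**Figure D1:**
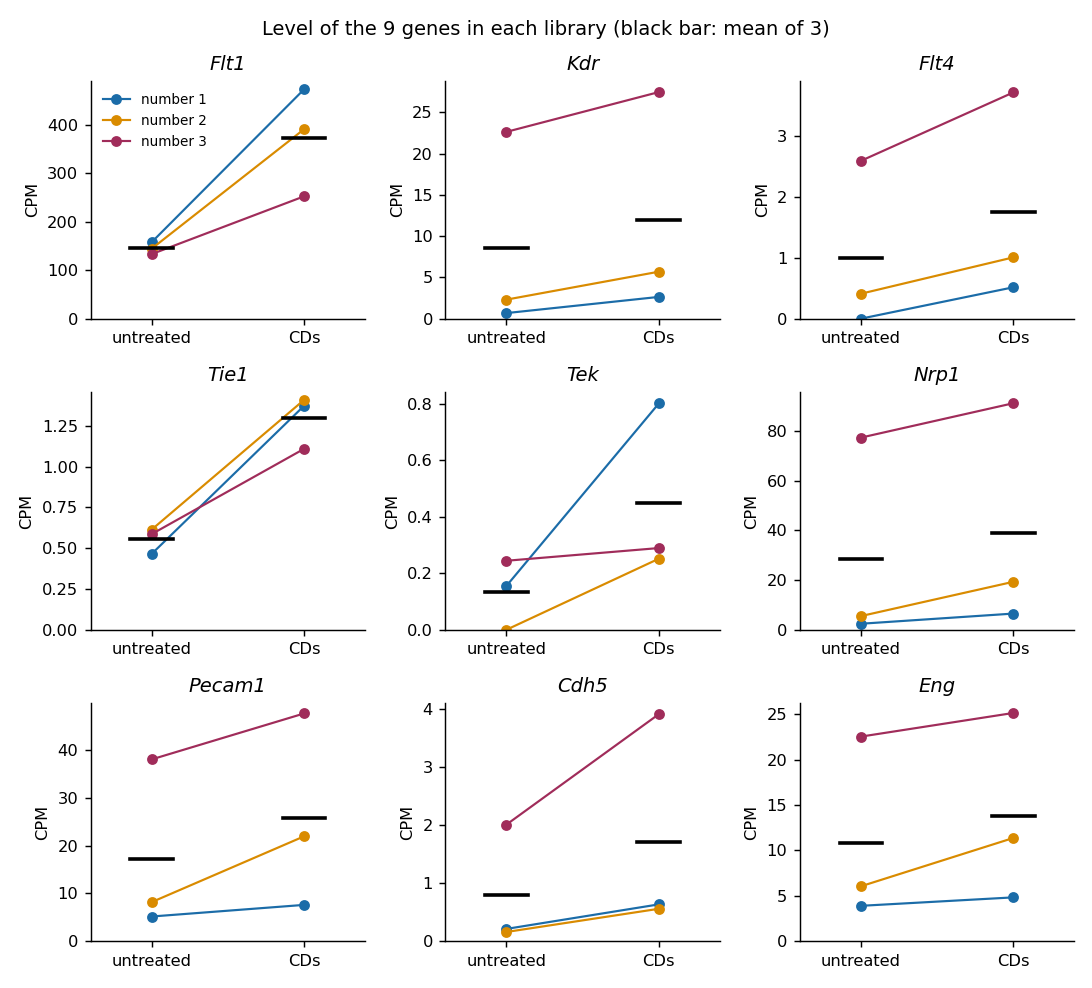
Level of each of the 9 genes in CPM (linear axis from 0), with points joined within the same replicate number and black bars for the means of 3 libraries. Flt1 lies between 133 and 158 CPM in untreated and between 252 and 473 CPM in CDs libraries, while Kdr, Flt4, Nrp1, Pecam1, Cdh5 and Eng are highest in number 3 of both groups.

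Flt1 (Entrez 14254, chromosome 5, 147561604 to 147726438) measured 158, 144 and 133 CPM in untreated 1 to 3, against 473, 391 and 252 CPM in CDs 1 to 3. The groups did not overlap, and the lowest treated library was number 3. Means were 145 ± 12.3 CPM (SD, n = 3) without CDs against 372 ± 112 CPM with CDs, and the ratio of treated to untreated was 3.0, 2.71 and 1.90 in the numbered pairs. The edgeR log2 fold change was 1.36 ± 0.26 (SE), or 2.57-fold, and 1.32 ± 0.14 with the replicate number as a block. With any 1 library left out it ran from 1.14 (without CDs 1) to 1.57 (without CDs 3). These expected counts are summed over the gene, so membrane and soluble forms are not separated.

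Kdr (chromosome 5, 75932827 to 75979072) measured 0.672, 2.30 and 22.6 CPM in untreated 1 to 3, against 2.63, 5.68 and 27.4 CPM in CDs 1 to 3. Its libraries therefore ordered by number first, and the groups overlapped widely. Untreated 3 was 33.7 times untreated 1, against a ratio of 3.92, 2.47 and 1.21 for CDs over untreated within pairs 1 to 3. Flt4 (chromosome 11, 49609679 to 49652739), the lymphatic receptor, had 0, 8 and 53 expected counts untreated, against 9, 20 and 77 in CDs libraries. The 0 in untreated 1 allows up to 0.155 CPM if 3 counts are taken as its limit, and up to 0.191 CPM by the exact Poisson 95% interval, for counting error only. Nrp1 (chromosome 8, 128358591 to 128505476), the co-receptor, measured 2.43, 5.53 and 77.3 CPM untreated, against 6.52, 19.3 and 91.2 CPM in CDs libraries. As in Kdr, both libraries numbered 3 stood far above the other 4.

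Flt1 held nearly all of the VEGF receptor transcript per length. Its FPKM was 31.7, 29.4 and 28.1 in untreated 1 to 3, against 97.1, 80.2 and 54.4 in CDs 1 to 3, and made up 99.6%, 98.3% and 85.7% of the summed FPKM of Flt1, Kdr and Flt4 in untreated libraries and 99.4%, 98.5% and 90.3% in CDs libraries. The share was thus lowest in number 3 of each group, where Kdr reached 4.25 and 5.16 FPKM. In mean FPKM untreated, Flt1 (29.8 ± 1.80, SD, n = 3) was followed by Pecam1 (5.28 ± 5.73), Nrp1 (5.19 ± 7.80), Eng (3.11 ± 3.005) and Kdr (1.61 ± 2.29). Cdh5 (0.200 ± 0.268), Flt4 (0.170 ± 0.236), Tie1 (0.137 ± 0.0231) and Tek (0.0333 ± 0.0306) came last. Untreated 3 set much of this order. Without it the means were 30.6 in Flt1, 1.99 in Pecam1, 1.39 in Eng, 0.685 in Nrp1, 0.285 in Kdr and 0.13 in Tie1, with Cdh5, Flt4 and Tek at 0.045 or less. Over the 3 libraries, neighbours other than Flt1 and Pecam1, and Tie1 and Tek, did not differ by more than their spread between libraries. Within each untreated library, however, Eng (1.06, 1.71 and 6.56 FPKM in untreated 1 to 3) stood above Kdr (0.13, 0.44 and 4.25). Kdr in turn stood above Cdh5 (0.05, 0.04 and 0.51). The remaining neighbours changed order between libraries.

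Tie1 (Entrez 21846, chromosome 4, 118471191 to 118489849) had 9, 12 and 12 expected counts in untreated 1 to 3, against 24, 28 and 23 in CDs 1 to 3. In CPM these were 0.465, 0.614 and 0.586 untreated and 1.37, 1.41 and 1.11 with CDs, with no overlap and no high value in number 3. The exact Poisson 95% intervals, which cover counting error only, reached up to 1.07 CPM in untreated 2 and down to 0.703 CPM in CDs 3. The intervals of these neighbouring libraries overlap. The log2 fold change was 1.21 ± 0.26, and 1.21 ± 0.29 with the block, and ran from 1.10 to 1.31 with any 1 library left out. Tek (chromosome 4, 94739086 to 94874976), the angiopoietin receptor, had 3, 0 and 5 expected counts untreated, against 14, 5 and 6 in CDs libraries. CDs 1 stood apart, the other 5 libraries had at most 6 counts, and untreated 3 and CDs 2 had 5 each.

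Pecam1 (CD31, chromosome 11, 106654213 to 106715281), an adhesion molecule of endothelium and of several blood cells, measured 5.12, 8.13 and 38.1 CPM in untreated 1 to 3, against 7.55, 21.9 and 47.7 CPM in CDs 1 to 3. Eng (endoglin, chromosome 2, 32646595 to 32682669), a co-receptor of the TGF-beta family, measured 3.88, 6.04 and 22.6 CPM untreated and 4.81, 11.4 and 25.2 CPM with CDs. Both were ordered by number within each group, with overlap between the groups. Cdh5 (VE-cadherin, chromosome 8, 104101613 to 104144504), the junction cadherin regarded as most specific to endothelium, had 4, 3 and 41 expected counts untreated and 11, 11 and 81 with CDs, again with number 3 apart. Its levels stayed at or below 3.91 CPM. The 3' end of Eng overlaps the gene Fpgs on the other strand, and the protocol names no strand-marking step, so reads there cannot be assigned to either.

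The ratio of number 3 to number 1 within a group also set Flt1, Tie1 and the barely detected Tek apart from the other genes, as a description, since levels by number were in view when the genes were chosen. Between untreated 3 and untreated 1 the ratio was 33.7 in Kdr, 31.9 in Nrp1, 9.69 in Cdh5, 7.44 in Pecam1 and 5.82 in Eng. It was 0.844 in Flt1, 1.26 in Tie1 and 1.58 in Tek. Between CDs 3 and CDs 1 it was 10.4, 14, 6.21, 6.31 and 5.24 in the same 5 genes, 7.21 in Flt4, 0.533 in Flt1, 0.807 in Tie1 and 0.361 in Tek. Of all genes tested, 11.9% were at least 4-fold higher in untreated 3 than in untreated 1 and 11.1% in CDs 3 than in CDs 1, on the log2(CPM + 0.5) scale. On that scale Kdr, Nrp1, Flt4, Pecam1 and Eng were past 4-fold in both groups, and Cdh5, at 3.54-fold untreated and 3.9-fold with CDs, was not. Each ratio compares 2 libraries and has no replicate check. Macrophage markers moved the same way (Adgre1 from 9.61 to 336 CPM and C1qa from 1.4 to 39.0 CPM between untreated 1 and untreated 3), and so did other lists. The list means of stem and progenitor, granulocyte and mast cell, hepatocyte and mesenchymal markers were also highest in number 3 of both groups. The median log2 ratio of untreated 3 over untreated 1 was 4.42 in macrophage markers and 2.73 in granulocyte and mast cell markers. It was only 1.015 in stem and progenitor, 0.65 in hepatocyte and 0.07 in mesenchymal markers. The part of these markers in the levels was not tested.

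**Figure D2:**
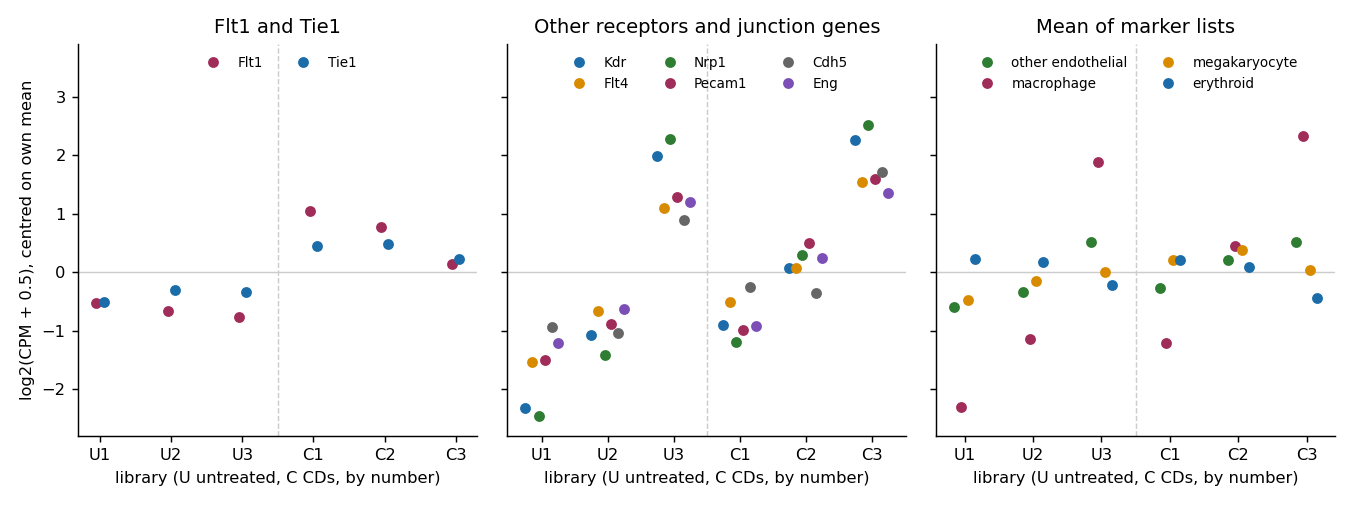
Log2(CPM + 0.5) of single genes (left and middle) and means of marker lists (right) in untreated (U1 to U3) and CDs (C1 to C3) libraries, each centred on its own mean over the 6 libraries. Flt1 and Tie1 lie below 0 in all 3 untreated and above 0 in all 3 CDs libraries, whereas the other 6 genes are highest in U3 and C3, as the macrophage and other endothelial lists are.

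The fitted fold changes of the remaining genes had wide errors without the block. They were 0.48 ± 1.46 (log2, SE) in Kdr, 0.80 ± 1.46 in Flt4, 0.46 ± 1.54 in Nrp1, 0.59 ± 0.99 in Pecam1, 1.10 ± 1.27 in Cdh5 and 0.35 ± 0.88 in Eng. With the block they were 0.89 ± 0.33, 1.04 ± 0.52, 1.01 ± 0.36, 0.76 ± 0.25, 1.21 ± 0.30 and 0.45 ± 0.17. Over the 8 genes the median was 0.69 without and 1.02 with the block, against 0.01 and 0.01 over all genes tested. Such a rise was not particular to these genes. The 21 macrophage markers tested had medians of 0.67 and 1.23, and 18 of them were higher with CDs in all 3 pairs. The 14 erythroid markers had -0.12 and -0.12. Without CDs 3 and with its numbered partner kept, all 6 remaining genes turned negative, from -1.14 in Nrp1 to -0.21 in Pecam1. Without untreated 3 they ran from 1.47 in Eng to 3.29 in Nrp1. Nrp1 also turned negative without untreated 1 or untreated 2, and Kdr and Eng without untreated 1. With both libraries numbered 3 left out and no block, all 8 were positive, at 1.49 ± 0.13 in Flt1, 1.34 ± 0.37 in Tie1, 1.47 ± 0.73 in Kdr, 1.85 ± 1.19 in Flt4, 1.69 ± 0.72 in Nrp1, 1.14 ± 0.61 in Pecam1, 1.66 ± 0.50 in Cdh5 and 0.69 ± 0.51 in Eng (n = 2 a group).

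Without the block edgeR called 0 of the 8 genes at an adjusted p of 0.05, as it called 0 of all genes tested (0%). Unadjusted p-values were under 0.05 in 127 genes (1.03% of all tested), Flt1 and Tie1 among them. With the block edgeR called 0 of the 8, against 0.0244% of all genes called as higher. At the looser limit of 0.10 the blocked fit took Flt1, Tie1 and Cdh5, against 5.17% of all genes on the higher side. DESeq2 without the block called Flt1 alone of the 8 (0.0733% of all genes were called higher), and with it called Flt1, Kdr, Nrp1 and Pecam1 (7.76%). Nothing is read from these counts either, and DESeq2 with the block gave no adjusted p for Flt4, Tie1 and Cdh5.

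**Figure D3:**
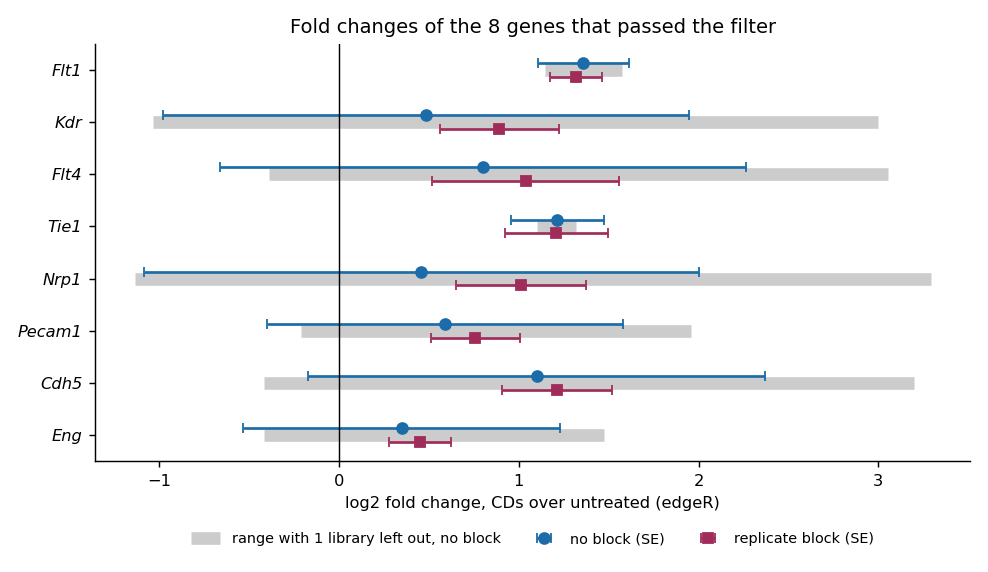
Log2 fold changes of CDs over untreated in edgeR for the 8 genes that passed the filter, without the block (circles) and with the replicate block (squares), with SE bars, and the range when 1 library is left out (grey). Flt1 (1.14 to 1.57) and Tie1 (1.10 to 1.31) stay positive throughout, and the ranges of the other 6 genes cross 0.

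Whether Flt1 and Tie1 followed the endothelial genes was asked in 2 ways, both as descriptions. In the first, the level of each was set against the mean log2(CPM + 0.5) of the 15 other endothelial genes that passed the filter, within each library. Flt1 stood above that mean by 5.32, 4.93 and 3.96 in untreated 1 to 3, compared with 6.58, 5.82 and 4.87 in CDs 1 to 3. The groups overlapped, with number 3 lowest in both, and within each pair the treated library was higher, by 1.26, 0.90 and 0.91. The mean difference of 1.02 exceeded the SD within untreated (0.70) and CDs (0.85) libraries. It was 0.64 without untreated 3, 0.61 without CDs 1 and 0.63 when Cdh5, Pecam1, Eng, Kdr and Tek were the reference. For Tie1 the values were -2.04, -2.10 and -2.98 untreated, against -1.41, -1.86 and -2.42 in CDs libraries. Within pairs the treated library was higher by 0.63, 0.24 and 0.56. The mean difference of 0.48 was smaller than the SD within untreated (0.53) and CDs (0.51) libraries, which holds the differences between numbers too. It shrank to 0.09 against the same 5 genes and to 0.18 with a pseudocount of 2 CPM, and was 0.17 without untreated 3, 0.23 without CDs 1 and 0.74 without CDs 3, so it depends on single libraries and on how such low levels are handled.

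**Figure D4:**
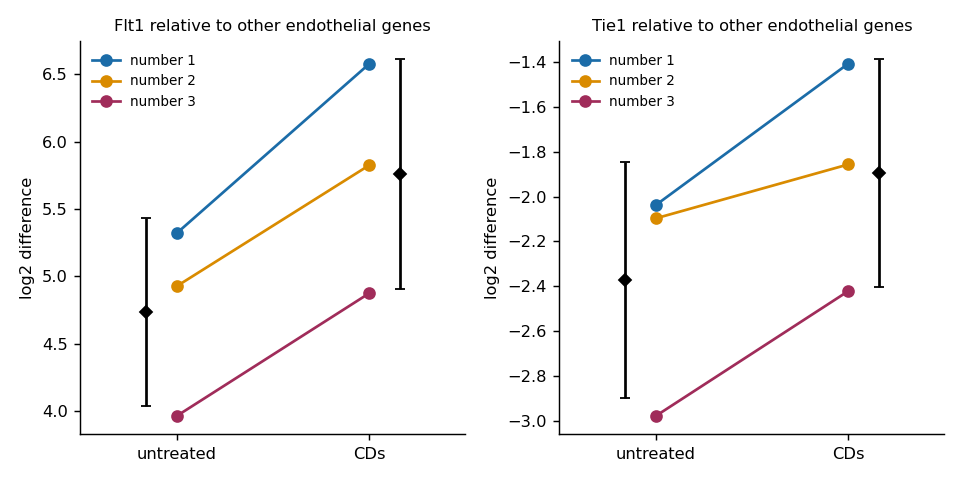
Log2(CPM + 0.5) of Flt1 (left) and Tie1 (right) minus the mean of 15 other endothelial genes in the same library, joined within the same replicate number, with means and SD (black, n = 3). Each treated library lies above its numbered partner, by 0.90 to 1.26 for Flt1 and by 0.24 to 0.63 for Tie1, and number 3 is lowest in both groups.

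In the second, whole profiles over the 6 libraries were compared as the root mean square (RMS) distance between log2(CPM + 0.5) values, each centred on its own mean. Flt1 lay 0.82 from the mean of the other endothelial genes, farther than from a flat line (0.71), and between 1.19 (Cdh5) and 2.02 (Nrp1) from the single genes Kdr, Flt4, Nrp1, Pecam1, Cdh5 and Eng. Its nearest gene of the set was Tie1, at 0.36. Tie1 lay 0.49 from the other endothelial genes and 0.40 from a flat line. Its levels are close to the 0.5 CPM added before the log2, which narrows its profile, so all distances of Tie1 depend on that setting. Of the marker lists, that of megakaryocytes was nearest to both, at 0.54 for Flt1 and 0.20 for Tie1. Of its 17 markers, 15 had a fold change above 0. In all 3 pairs 7 were higher with CDs, against 30.3% of all genes tested. The CDs libraries lay above the untreated ones without overlap in 4, against 2.39% of all genes tested. In edgeR 0 passed with or without the block, and nothing is read from these counts. Pf4, a platelet chemokine with the largest fold change of the list, measured 6.72, 7.93 and 11.6 CPM untreated, against 15.1, 20.4 and 18.6 CPM in CDs libraries, and Itga2b, its integrin, 40.5, 37.2 and 39.1 CPM untreated and 57.0, 50.8 and 36.6 CPM with CDs. Kdr and Nrp1 lay 0.20 and 0.23 from the mean of the macrophage markers but 1.23 and 1.45 from the other endothelial genes. Pecam1 lay 0.53 from the macrophage markers and 0.76 from the other endothelial genes. Eng (0.71 and 0.58) and Cdh5 (0.90 and 0.64) had the opposite order. The distance depends on how far a profile ranges as well as on its shape. Eng ran from -1.21 to 1.35, against -2.31 to 2.32 in the macrophage mean and -0.60 to 0.52 in the endothelial mean. All 3 were lowest in untreated 1 and highest in CDs 3, so this order does not tell which list Eng follows. Of the marker lists, the nearest was that of granulocytes and mast cells to Pecam1 (0.37) and that of stem cells and progenitors to Eng (0.27), Flt4 (0.33) and Cdh5 (0.48).

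The other endothelial genes had no common direction. Of the 15 tested, 9 had a fold change above 0 and 6 below, with a median of 0.20, and 0 passed in edgeR with or without the block. Stab1, a scavenger receptor of sinusoids and macrophages, measured 6.26, 10.6 and 160 CPM untreated, against 21.1, 54.5 and 259 CPM in CDs libraries. Vwf, von Willebrand factor of endothelium and megakaryocytes, measured 23.6, 24.5 and 17.1 CPM untreated and 28.3, 25.1 and 13.6 CPM with CDs. Stab2, a receptor of liver sinusoids, stayed between 0.256 and 2.56 CPM. Summed over the 15 genes the level was 1032 ± 32.4 CPM (SD, n = 3) without CDs against 992 ± 36.8 CPM with CDs, a difference of -40.1 CPM (exact two-sided permutation p = 0.2, smallest possible 0.1). Tal1, a transcription factor that erythroblasts share, held between 55.7% and 90.1% of this sum. Without it the sums were 98.3, 161 and 360 CPM untreated, against 114, 205 and 430 CPM in CDs libraries. They were higher in CDs by 43.4 CPM on average (exact permutation p = 0.6). In the libraries numbered 3, Stab1, Aqp1 and Fcgr2b held the largest parts of what remained. Aqp1 measured 103 CPM in untreated 3 and 68.5 CPM in CDs 3, and Fcgr2b 49.7 and 57.6 CPM. Neither sum therefore measures endothelium as such. These genes and Tal1 are also in the reference mean for Flt1 and Tie1, where each gene weighs alike. Without Tal1 the mean differences there were 0.99 and 0.44.

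The ligands of these receptors did not share the pattern of Flt1. Vegfa, the ligand of Flt1 and Kdr, measured 50.9, 44.0 and 21.0 CPM untreated, against 48.6, 38.8 and 15.9 CPM in CDs libraries, with CDs below untreated in 3 of 3 pairs and number 3 lowest (log2 fold change of -0.17 ± 0.52). Vegfb, which binds Flt1, measured 5.93 ± 0.578 CPM (SD, n = 3) without CDs against 6.62 ± 0.542 CPM with CDs (0.16 ± 0.19). Vegfd, a ligand of Flt4, measured 4.34 ± 0.414 and 3.29 ± 0.544 CPM (-0.40 ± 0.23). Angpt1, the activating ligand of Tek, had 0.19 ± 0.42 and Angpt2, its context-dependent antagonist, 0.50 ± 0.83. Pgf, Vegfc and Angpt4 did not pass the filter, and Pgf, a ligand of Flt1, was at most 0.386 CPM. Of the 5 ligands tested 0 passed, with 3 above and 2 below 0.

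Co-receptors and signalling genes of the pathway lay mostly above 0 without passing. Of 23 tested, 21 had positive fold changes (median 0.58) and 0 passed with or without the block. This is not particular to the pathway. Of the marker lists, 20 of 21 macrophage (median 0.67) and 14 of 14 hepatocyte markers tested (median 0.36) were also above 0, but only 3 of 14 erythroid ones. Nrp2, the second neuropilin, measured 0.644, 1.29 and 20.6 CPM untreated, against 2.06, 5.26 and 29.3 CPM in CDs libraries, ordered by number as Nrp1 was. Ptprb, the phosphatase that acts on TIE2, did not pass the filter, with at most 0.406 CPM. Prkca, a protein kinase C downstream of VEGF receptors, measured 4.78 ± 0.957 CPM (SD, n = 3) without CDs against 7.61 ± 0.756 CPM with CDs (0.67 ± 0.23), without overlap. Akt1 had 0.15 ± 0.11, Flt3, a receptor kinase of progenitors, 0.72 ± 0.64 and Rasa1, a Ras GTPase activator, 0.14 ± 0.13. Acvrl1, the receptor kinase that works with endoglin, measured 0.62, 1.59 and 18.3 CPM untreated, against 1.54, 8.0 and 23.1 CPM in CDs libraries, again highest in number 3.

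Notch and angiogenesis genes gave 6 of 6 tested members above 0 (median 0.48), and endothelial transcription factors 13 of 17 (median 0.29), with 0 passing in either list with or without the block. Mesenchymal markers gave 7 of 7 and stem and progenitor markers 13 of 15, against 3 of 14 in erythroid markers, so nothing is read from these counts. Hes1, a Notch target, measured 0.504 ± 0.127 CPM (SD, n = 3) without CDs against 0.947 ± 0.0818 CPM with CDs (0.90 ± 0.30), without overlap. It had only 11, 7 and 12 expected counts untreated, against 17, 17 and 21 in CDs libraries. Untreated 2 lay below the filter level of 0.502 CPM and every CDs library above it. Like Prkca, it was named for its small unadjusted p in this contrast, so nothing is read from the lack of overlap. Angptl4 had 0.43 ± 0.32, Unc5b 0.62 ± 0.62 and Jag2 0.42 ± 0.59. Among the transcription factors Prox1, of lymphatic endothelium, had 0.76 ± 0.40, Epas1 (HIF-2 alpha) 0.93 ± 0.69, Mef2c 0.95 ± 0.80 and Klf4 0.92 ± 1.16. In edgeR without the block, 2 of 51 genes of these 4 pathway lists, Prkca and Hes1, had an unadjusted p under 0.05. Of all genes 127 did, or 1.03%. With the block, 24 of the 51 did (3667 of all genes, or 29.9%), and 0 passed after adjustment.

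Genes outside the set with profiles most like that of Flt1, of 10999 genes with a mean of at least 1 CPM, were Pik3cd, Egln1, Il6ra, Timp3 and Elovl6, at RMS distances of 0.11 to 0.20, against a median distance of 0.77 (log2) over the genes compared. Pik3cd, a catalytic PI3-kinase subunit of blood cells, measured 60.1, 54.4 and 59.0 CPM untreated, against 174, 134 and 91.3 CPM in CDs libraries. Egln1, an oxygen-sensing prolyl hydroxylase, measured 17.0, 13.6 and 10.3 CPM untreated and 49.6, 38.9 and 22.5 CPM with CDs. In both, as in Flt1, the smallest treated value was in number 3. The genes most like Tie1 were Il9r, Fads1, Mmab, Pde5a and Rbpms2, at distances of 0.06 to 0.17 against a median of 0.50. The added 0.5 CPM narrows the profile of Tie1. Its log2 pair differences were 0.96, 0.78 and 0.57 on this scale, though the CPM ratios were 2.95, 2.3 and 1.89. Fads1, with means of 56.9 CPM untreated and 84.1 CPM with CDs, is therefore alike only on this scale. Il9r, a cytokine receptor, measured 1.4, 1.62 and 1.78 CPM untreated, against 3.05, 3.06 and 2.52 CPM in CDs libraries. These genes were picked over the same 6 libraries, so their difference between the groups follows from the choice.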

How the data were processed

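The authors deposited expected counts per gene and a second table that holds FPKM, a unit worked out here from the values. Per the submitters' processing notes, the tools were RSEM 1.2.12, DESeq2 1.4.5, HISAT2 2.0.4 and Bowtie2 2.2.5 on GRCm38.p6, listed without roles. Per the labels' protocols, polyadenylated RNA was read from one end over 50 bases. The deposited expected counts (30.1% of values more than 0.001 from a whole number) were rounded, filtered with filterByExpr, given TMM factors and fitted in edgeR 4.0.16 under R 4.3.3 (robust quasi-likelihood test), with Benjamini-Hochberg adjustment over 12283 genes. Standard errors are the log2 fold change divided by the square root of its F statistic. DESeq2 1.42.0 and limma 3.58.1 (voom) were alternatives. Fits were tested on simulated data. Sums were compared with exact permutation tests.

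Same-numbered libraries deviated together from their group means (correlations of 0.938, 0.439 and 0.954, limit 0.1). Values are therefore also given by numbered pair. The labels state no pairing, so the main fit ignores the numbers and the block is an alternative. Errors of the main fit thus include the differences between numbers. No library was a copy of another (smallest chi-square per degree of freedom within a group 10.8). In Flt1 counts and FPKM deviate by an RMS of 0.0033 (log2), against a median of 0.0060 over 9964 genes, and in Pecam1 by 0.033, more than in 84.7% of them. The genes and lists were chosen with earlier results of these data known. Named genes are the 9, the 5 nearest profiles to Flt1 and to Tie1, up to 4 genes with the smallest unadjusted p per pathway list and fixed markers. Csf1r, Timd4, Cd163, Vsig4, Vegfa, Pgf, Nrp2, Acvrl1, Ptprb, Stab1, Aqp1, Fcgr2b, Tal1, Clec14a, Gpihbp1 and Sox18 were named after their values were seen. Coordinates are 1-based, from RefSeq.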

Additional observations from a re-analysis of the deposited data

How the results depend on the processing

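Genes called numbered 0 without the block in edgeR, also with DESeq2 size factors, without the filter, in limma-voom, with any 1 library left out (0 to 0) and without both libraries numbered 3. They numbered 5 in edgeR with the replicate block, 14 in DESeq2, 1210 in DESeq2 with the replicate block and, as alternatives chosen after seeing the data, 7 in limma-voom with the block and 1835 in edgeR with the block and without both libraries numbered 3 (1 residual degree of freedom), where Flt1, Kdr, Nrp1, Pecam1 and Tie1 were called. Flt1 and Tie1 kept a positive fold change in 15 of 15 alternatives. Relative to the other endothelial genes the difference of Flt1 ran from 0.61 to 1.46 and that of Tie1 from 0.17 to 0.74 with 1 library left out, and stayed positive under all alternatives run. As means of the pairs (replicate block) both were unchanged by construction, at 1.02 and 0.48. The summed level of the other endothelial genes differed by -61.3 to -29.1 CPM with 1 library left out and by -40.1 CPM with the replicate block (exact sign-flip p = 0.5, smallest possible 0.25), and turned to 43.4 CPM without Tal1 (exact permutation p = 0.6), a setting also added after seeing the data. Depth limits Tie1, Tek, Flt4 and Cdh5, whose libraries hold 81 counts or fewer.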
